A study of Mus musculus with 4 samples.

Results

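Peaks around 3 genes of cardiac calcium handling, Ryr2, Atp2a2 and Pln, were taken from ChIP-seq lists (chromatin immunoprecipitation followed by sequencing) of mouse cardiac ventricles at postnatal day 6. The members were all called intervals sharing 1 bp or more with a fixed window of the mm9 genome around each gene. The windows were chr13:11595000-12250000 for Ryr2 (655 kb), chr5:122853000-123003000 for Atp2a2 (150 kb) and chr10:53000000-53120000 for Pln (120 kb). They held 161 of the 86315 intervals of the series: 136 of 75011 for H3K27ac (acetylation of lysine 27 on histone H3, found at promoters and enhancers in use), 24 of 10530 for GATA4 (a transcription factor needed for heart muscle development) and 1 of 774 for TCF7L2 (a TCF/LEF family factor through which Wnt signals act on genes).

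All samples came from wild-type C57BL/6 mice, with no treatment. Each precipitation used ventricles pooled from 10 hearts, and the labels give 2 biological replicates, but each antibody has a single list, so no value here has a replicate error. Whole ventricles hold several cell types besides heart muscle cells, and a peak cannot be assigned to any of them. The lists give positions only, so read depth and peak height are unknown, and acetylation is described by interval width and by cover, the percent of a window's bases inside H3K27ac intervals.

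The products of the genes act together. Calcium that enters a heart muscle cell at each beat opens RYR2, the release channel of the sarcoplasmic reticulum, and the released calcium triggers contraction. SERCA2, the pump encoded by Atp2a2, returns it to the store, and phospholamban, encoded by Pln, is a small membrane protein that holds the pump back until it is phosphorylated. In rodents this machinery matures around birth and in the first weeks of life.

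The gene table at hand, of RefSeq for another build (GRCm38.p6), gives gene lengths of 553.8 kb for Ryr2, 48.7 kb for Atp2a2 and 8.31 kb for Pln. Each window was therefore longer than its gene, by 101.2, 101.3 and 111.7 kb. Ryr2 made up 84.6% of its window, Atp2a2 32.5% and Pln 6.93%. By gene order in that table, the nearest protein-coding neighbour of Ryr2 on the upper side is Mtr, Atp2a2 lies between Anapc7 and Ift81, and Pln lies inside Cep85l. Peaks of the windows were placed by position alone and assigned to no gene.

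RefSeq promoters were at hand for Ryr2 and Pln. Their 250 bases before the start site are shown because GATA4 and TCF7L2 are DNA-binding factors whose core letters can be looked up there. Both run 5′ to 3′ on the gene's own strand, and capitals mark matches to the GATA core, GATAA or TTATC on the other strand. The Ryr2 promoter is chr13:12106946-12107195 (minus strand) and the Pln promoter chr10:53337436-53337685 (plus strand), both in GRCm38.p6. These positions cannot be set against the mm9 peaks, so whether a peak lies on either promoter was not analysed here.
Ryr2: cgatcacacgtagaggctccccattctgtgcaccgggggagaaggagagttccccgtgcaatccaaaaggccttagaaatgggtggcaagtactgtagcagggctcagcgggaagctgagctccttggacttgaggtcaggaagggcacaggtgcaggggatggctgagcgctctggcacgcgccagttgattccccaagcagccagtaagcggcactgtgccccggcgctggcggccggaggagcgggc
Pln: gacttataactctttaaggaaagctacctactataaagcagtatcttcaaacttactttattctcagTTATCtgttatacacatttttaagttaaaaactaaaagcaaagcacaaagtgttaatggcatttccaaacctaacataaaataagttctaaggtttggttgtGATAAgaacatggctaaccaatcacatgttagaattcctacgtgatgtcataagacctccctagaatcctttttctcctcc

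The Ryr2 promoter was rich in G and C, at 63.2% with 14 CG pairs, against medians of 52.4% and 6 over 32851 promoters cut to the same length. That of Pln was at 32.8% with 1 CG pair. The Pln sequence held 2 GATA cores, at bases 68 to 72 and 170 to 174, the second beginning 81 bases before the start site. The Ryr2 sequence held 0. Of all promoters of this length, 22.6% held a GATA core and 4.28% held 2 or more. These shares are not matched for base composition. The core is mostly A and T, as is the Pln sequence, so they do not show that 2 cores are unusual there. The TCF/LEF core, TCAAAG or CTTTGA on the other strand, was found in neither sequence and in 13.8% of all promoters. The cores were searched separately, and no matches overlapped.

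Much of each window was acetylated. H3K27ac covered 58.7% of the Ryr2 window, 88.0% of the Atp2a2 window and 52.7% of the Pln window, or 384.8, 132.1 and 63.2 kb. In the rest of the same chromosomes it covered 8.49% (chromosome 13), 10.6% (chromosome 5) and 9.85% (chromosome 10), so the windows were 6.92-fold, 8.34-fold and 5.35-fold higher. The form of the acetylation differed. The Ryr2 window held 112 intervals of median width 1153.5 bp, the Atp2a2 window 7 of median width 2235 bp and the Pln window 17 of median width 817 bp. The 2 widest intervals made up 34.5% of the acetylated length at Ryr2, 90.7% at Atp2a2 and 65.7% at Pln.

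**Figure D1:**
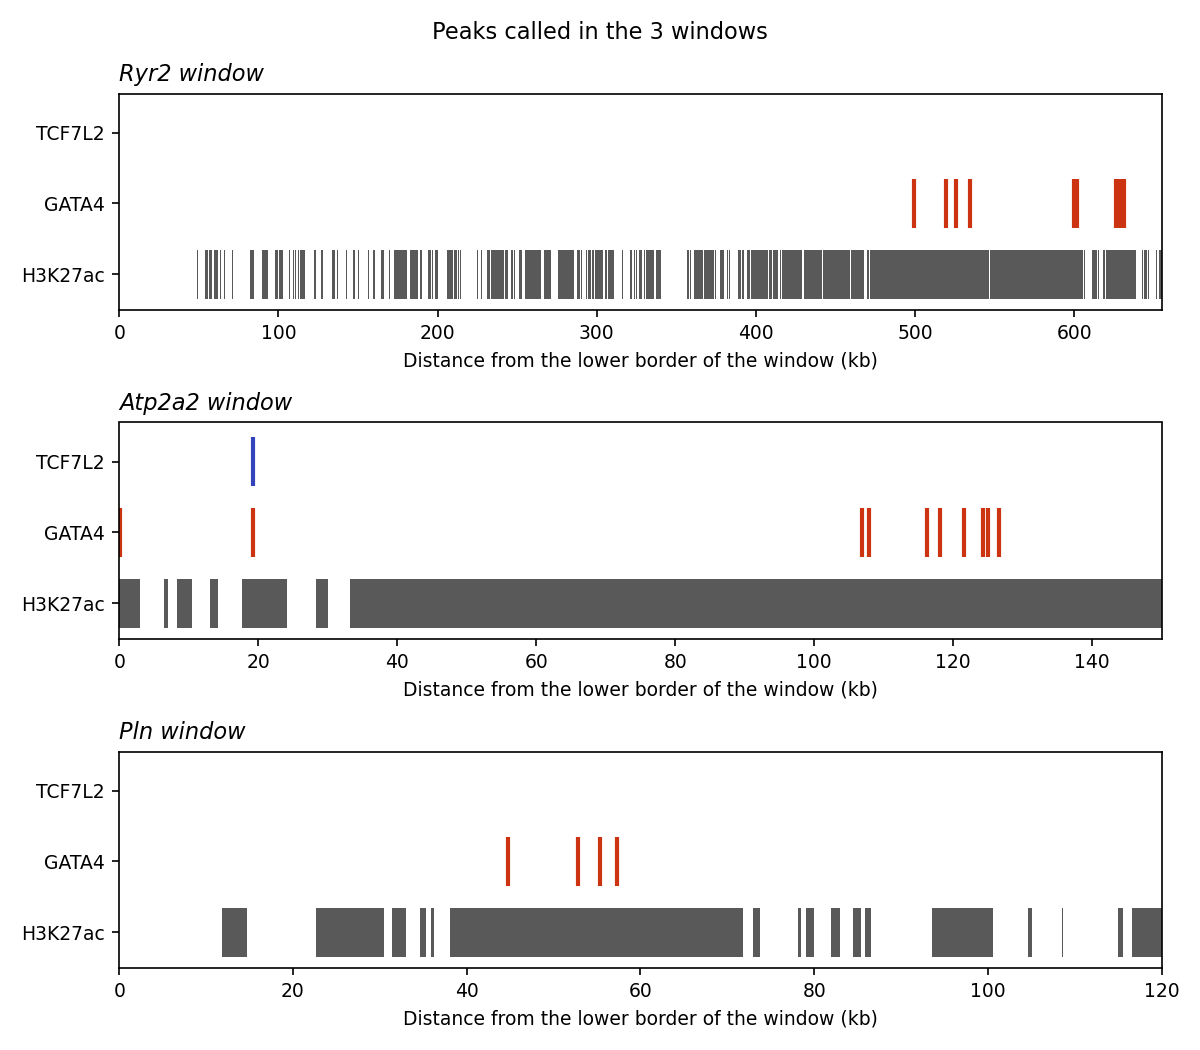
Map of the called intervals in each window, with distance from the lower border of the window in kb on the x axis and 1 lane per antibody. The Atp2a2 window is filled mostly by 1 interval, the Ryr2 window holds 112, and the only TCF7L2 peak of the 3 windows lies on a GATA4 peak at Atp2a2.

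The Ryr2 window held the longest joined run of acetylation. Set beside 177 non-overlapping windows of the same length on chromosome 13, its cover and its number of intervals were each reached by 0% of them. Those windows had a median cover of 4.82% and a highest cover of 38.1%, a median of 15 intervals and at most 85. Over windows of this length on all autosomes, 0.518% reached its cover. The Ryr2 intervals were not wide as a rule: 52 of 112, or 46.4%, were narrower than 1 kb, against 44.7% of the other 3551 intervals of chromosome 13, whose median width was 1256 bp. They lay close together, with a median gap of 1236 bp against 4146 bp over the chromosome. Most of the cover still came from the wider ones: intervals of 2 kb or wider alone covered 49.1% of the window, and 9 were 10 kb or wider. Of 111 gaps, 46 were shorter than 1 kb and 8 were 5 kb or longer. Joined across gaps of up to 10 kb, H3K27ac formed a stretch of 630.9 kb from 110 intervals, chr13:11677340-12308232, which ran 58.2 kb past the upper border. It was the longest of 23520 such stretches in the list, and 65.4% of it was acetylated. Its length and rank rested on the gap allowed: with 5 kb it was 280.3 kb and ranked 8th in the list, with 20 kb it was 664.1 kb and ranked 14th, and with 1 kb it was 175.2 kb and ranked 9th. At 1 kb it was a core of 8 intervals, chr13:12025067-12200259, that was 97.4% acetylated.

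Along the Ryr2 window the cover was uneven. In 5 equal parts of 131 kb, from the lower border up, it was 21.2%, 45.3%, 51.3%, 91.5% and 84.4%. The lower 3 parts held 22, 30 and 35 intervals and the upper parts, filled by wide intervals, 13 and 14. The lowest 49.2 kb, chr13:11595000-11644174, held no H3K27ac. The longest gap between intervals was 10.7 kb, chr13:11666638-11677339. RefSeq places Ryr2 on the minus strand of GRCm38.p6, where transcription starts from the side of the higher coordinates. The adjoining windows of the same length had a cover of 0.975% below and 24.7% above.

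The 5 widest Ryr2 intervals all lay in the upper parts. The widest, 74.6 kb at chr13:12066729-12141294, was the second widest of chromosome 13 and held 4 GATA4 peaks. The next, 58.4 kb at chr13:12141904-12200259, was the fifth widest of the chromosome and held 2. An interval of 19.0 kb at chr13:12215042-12234018 held 4. Those of 16.8 kb (chr13:12037306-12054110) and 12.2 kb (chr13:12011589-12023830) held 0. All 10 GATA4 peaks of the window were thus in 3 of its 112 intervals.

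**Figure D2:**
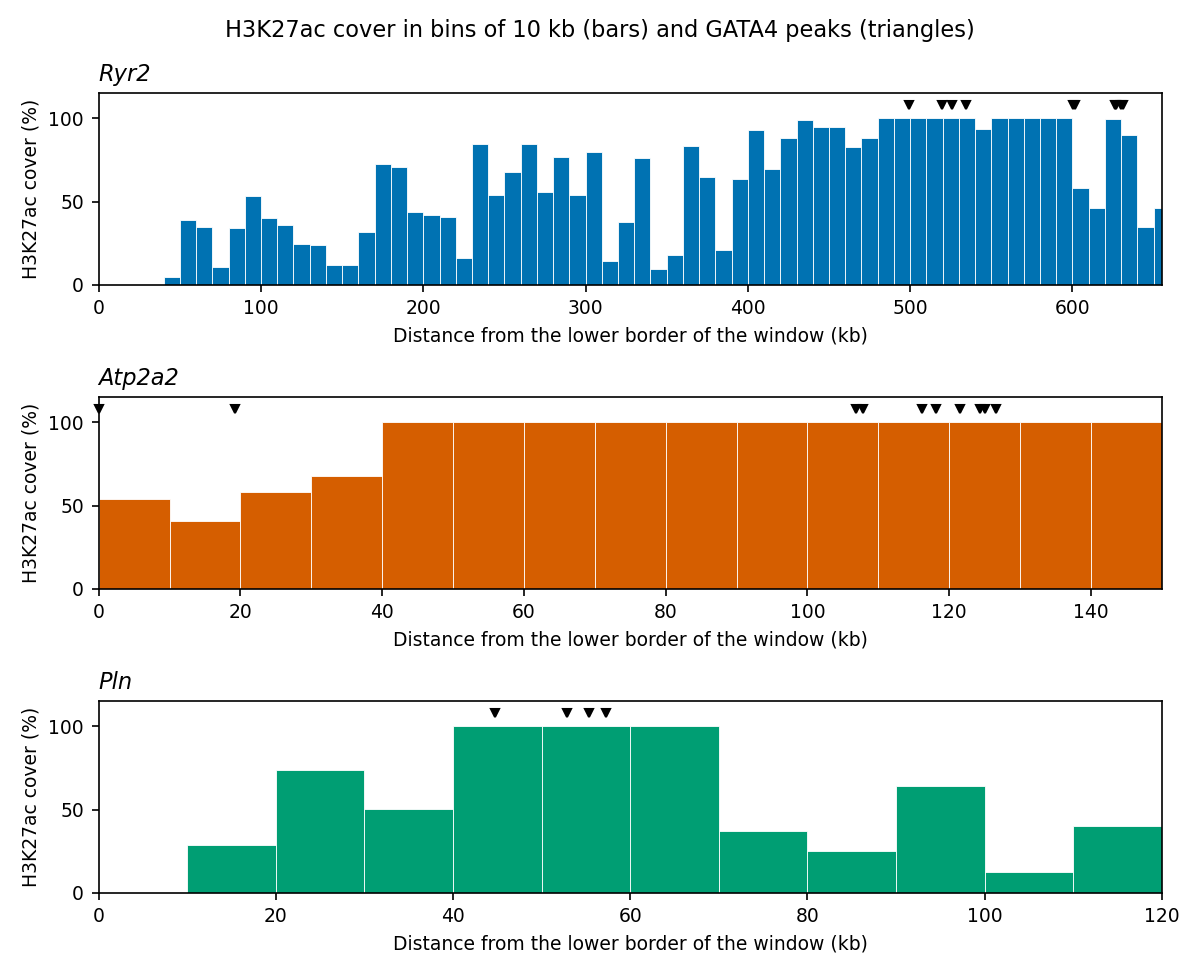
H3K27ac cover (percent of bases) in bins of 10 kb along each window, with distance from the lower border in kb on the x axis and GATA4 peaks as triangles. Of the 66 bins of the Ryr2 window 18 are covered to 90% or more, and its 10 GATA4 peaks all lie beyond 499 kb.

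The GATA4 peaks of the Ryr2 window lay on its upper side. The 10 peaks lay between 12094178 and 12226426, a span of 132.3 kb or 20.2% of the window. In the 5 equal parts of the window, from the lower border up, the counts were 0, 0, 0, 2 and 8. The 499.2 kb below the first peak, a length set by that peak, held 249.4 kb of H3K27ac or 64.8% of the acetylated length of the window. Most of the peaks came in groups. The first 4, of 197, 159, 125 and 254 bp, began at 12094178, 12114460, 12120605 and 12129175. Of these the first stood alone, 20.3 kb from the second. A pair of 125 and 518 bp lay at chr13:12195028-12195152 and chr13:12196441-12196958, near the upper end of the 58.4 kb interval. The last 4 were within 5.47 kb, chr13:12220954-12226426, and included the 2 widest of the window, 591 bp (chr13:12224299-12224889) and 731 bp (chr13:12225696-12226426). By width these ranked 161st and 63rd in the whole GATA4 list.

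The Atp2a2 window was nearly filled by acetylation. An interval of 148.2 kb, chr5:122886244-123034394, began inside the window and ran 31.4 kb past its upper border. It was the widest of chromosome 5 and the 9th widest of the 75011, and supplied 88.4% of the acetylated length of the window. The other 6 intervals were an interval of 14.4 kb on the lower border (chr5:122841652-122856005), one of 6.51 kb (chr5:122870643-122877156), those of 2235 bp (chr5:122861250-122863484) and 1671 bp (chr5:122881338-122883008), and a pair of 1226 and 645 bp. Only 17.9 kb of the window was not acetylated, and the longest free length was 4.18 kb, chr5:122877157-122881337. Cover in 5 equal parts of 30 kb was 51.0%, 89.2% and then 100% in each of the upper 3.

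Among 994 same-length windows of chromosome 5, 3 or 0.302% had a cover at or above that of Atp2a2, the median being 1.49% and the highest 95.8%. Its 7 intervals were reached by 31% of the windows, whose median was 2, so its number of intervals stood out far less than its cover. Both adjoining windows were also well covered, at 46.3% below and 49.0% above. Joined across gaps of up to 10 kb, the acetylation formed a stretch of 195.1 kb, the eighth longest of chromosome 5 and the 140th of 23520 in the list.

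The Atp2a2 window held 10 GATA4 peaks, or 6.67 per 100 kb (95% exact Poisson interval 3.20 to 12.3, covering counting error over peaks only). Of the same-length windows 1, or 0.101%, held as many, also 10, at a cover of 68.1%. The 3 windows with a cover at or above that of Atp2a2 held from 1 to 5 GATA4 peaks. Of its 10 peaks 8 lay within 20.0 kb, chr5:122959789-122979743, near the middle of the 148.2 kb interval. In order from the lower side these were 125, 381, 184, 712, 332, 415, 252 and 205 bp wide. The widest, chr5:122970774-122971485, ranked 71st in the whole list. The 73.5 kb of the same interval below this group held none. At its whole width, which runs past the upper border of the window, that interval held 9 GATA4 peaks.

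The other 2 GATA4 peaks of the Atp2a2 window lay apart from the group. A peak of 177 bp, chr5:122853005-122853181, began 5 bases inside the lower border, and its place in the window rests on where that border was set. A peak of 162 bp, chr5:122872154-122872315, lay in the 6.51 kb interval. It was covered over its whole length by the only TCF7L2 peak of the 3 windows, 217 bp at chr5:122872148-122872364. TCF7L2 peaks were sparse on the chromosome: 33 of the 994 same-length windows, or 3.32%, held any. The TCF7L2 peak was 19.3 kb from the lower border and dropped out when the window was shortened by 20 kb on either side. With the window lengthened by 50 kb on either side, the TCF7L2 density was 0.8 per 100 kb, against 0.667 as set. At its whole width, the 14.4 kb interval on the lower border held 3 GATA4 peaks and 1 TCF7L2 peak, the latter outside the window.

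The Pln window had a narrower acetylated centre. Its widest interval, 33.7 kb at chr10:53038087-53071776, ranked 27th on chromosome 10 and 611th in the list and supplied 53.3% of the acetylated length. The next widest were 7.84 kb (chr10:53022602-53030444), 6.97 kb (chr10:53093598-53100571), 4.78 kb (chr10:53116521-53121295, crossing the upper border) and 2.89 kb (chr10:53011818-53014708). Of its 17 intervals 11, or 64.7%, were narrower than 1 kb, against 43.3% of the others on the chromosome. Cover in 5 equal parts of 24 kb was 17.9%, 79.3%, 99.1%, 28.6% and 38.5%. The longest free length was 11.8 kb at the lower border, chr10:53000000-53011817.

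Among 1056 same-length windows of chromosome 10, 48 or 4.55% had a cover at or above that of Pln, where the median was 1.60% and the highest 87.6%. Its 17 intervals were reached by 2.08%. The adjoining windows had covers of 11.0% below and 53.8% above, so acetylation went on beyond the upper border. With gaps of up to 10 kb joined, the stretch was 178.9 kb, chr10:53011818-53190681, and ran 70.7 kb past that border. With 5 kb it was 64.0 kb and with 1 kb it was the 33.7 kb interval alone.

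All 4 GATA4 peaks of the Pln window lay in that interval, within 13.0 kb. They were 506 bp (chr10:53044442-53044947), 226 bp (chr10:53052749-53052974), 125 bp (chr10:53055284-53055408) and 223 bp (chr10:53057208-53057430). The first, the widest, stood 8.17 kb from the next, while the other 3 were about evenly spaced at 2.48 and 1.97 kb. A count of 4 or more was found in 27 of the same-length windows, or 2.56%. The 48 windows with at least the cover of Pln held a median of 2 GATA4 peaks and from 0 to 11. No TCF7L2 peak was called in the Pln or the Ryr2 window. Windows of these lengths held one in 3.5% of cases on chromosome 10 and 12.4% on chromosome 13, so a count of 0 was the usual state, and it allows up to 2.5 and 0.458 peaks per 100 kb.

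**Figure D3:**
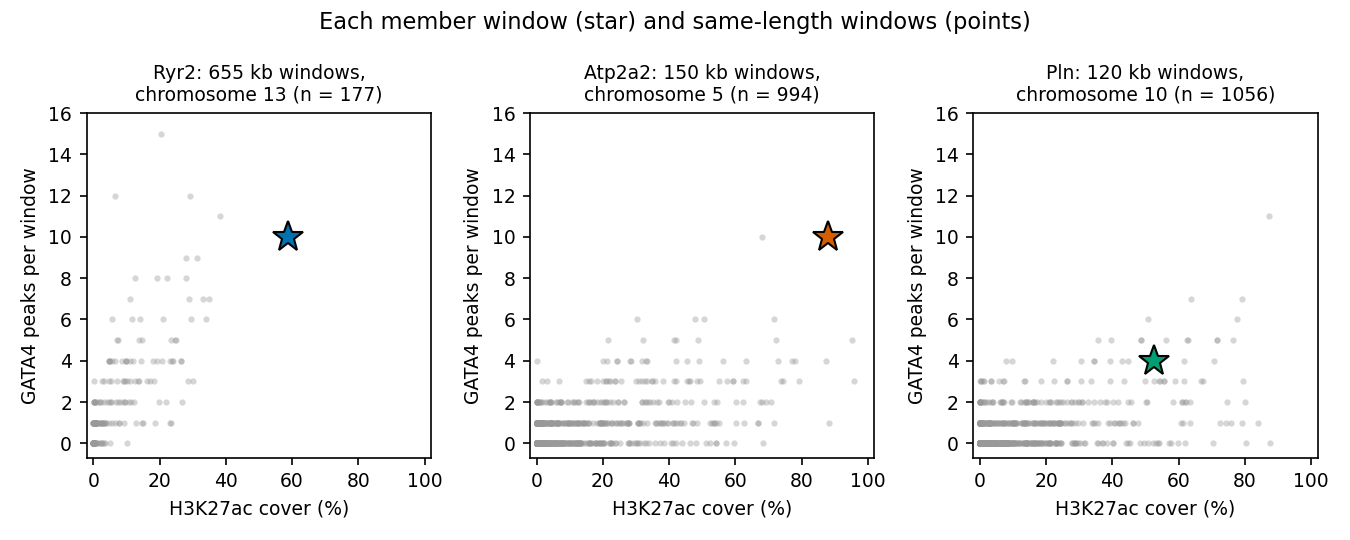
Number of GATA4 peaks against H3K27ac cover (percent) for each gene's window (star) and all non-overlapping windows of the same length on its chromosome (grey points). Ryr2 lies to the right of all 177 points, and Atp2a2 is level with the highest count among 994.

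GATA4 density was compared between the windows. Per 100 kb of DNA it was 1.53 at Ryr2 (0.732 to 2.81), 6.67 at Atp2a2 (3.20 to 12.3) and 3.33 at Pln (0.908 to 8.53), against 0.379, 0.435 and 0.453 in the rest of the chromosomes. The windows were 4.03-fold, 15.3-fold and 7.36-fold higher. The count at Ryr2 was reached by 4 of 177 windows, or 2.26%, which held 11 to 15 GATA4 peaks at covers of 6.46% to 38.1%. Atp2a2 exceeded Ryr2 by 4.37-fold, with an exact 95% interval of the ratio from 1.63 to 11.7. The ratio of Pln to Ryr2 was 2.18 (0.500 to 7.57) and that of Atp2a2 to Pln 2.00 (0.577 to 8.74), so these pairs were not separated by the counting error. The peaks come in groups, which these intervals do not allow for, so they are too narrow.

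When only acetylated DNA was counted, the order of the windows was the same, but they stood nearer to the rest of their chromosomes. Per 100 kb of H3K27ac, GATA4 peaks numbered 2.60 at Ryr2 (1.25 to 4.78), 7.57 at Atp2a2 (3.63 to 13.9) and 6.33 at Pln (1.72 to 16.2). In the rest of the chromosomes there were 3.56 (3.20 to 3.95), 3.21 (2.93 to 3.50) and 3.49 (3.17 to 3.83). Ryr2 was thus at 0.730 times the rest of its chromosome and Pln at 1.81 times, with intervals that hold the chromosome value. Atp2a2 was at 2.36 times, with an interval just above it. The ratio of Atp2a2 to Ryr2 on this scale was 2.91 (1.09 to 7.80).

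**Figure D4:**
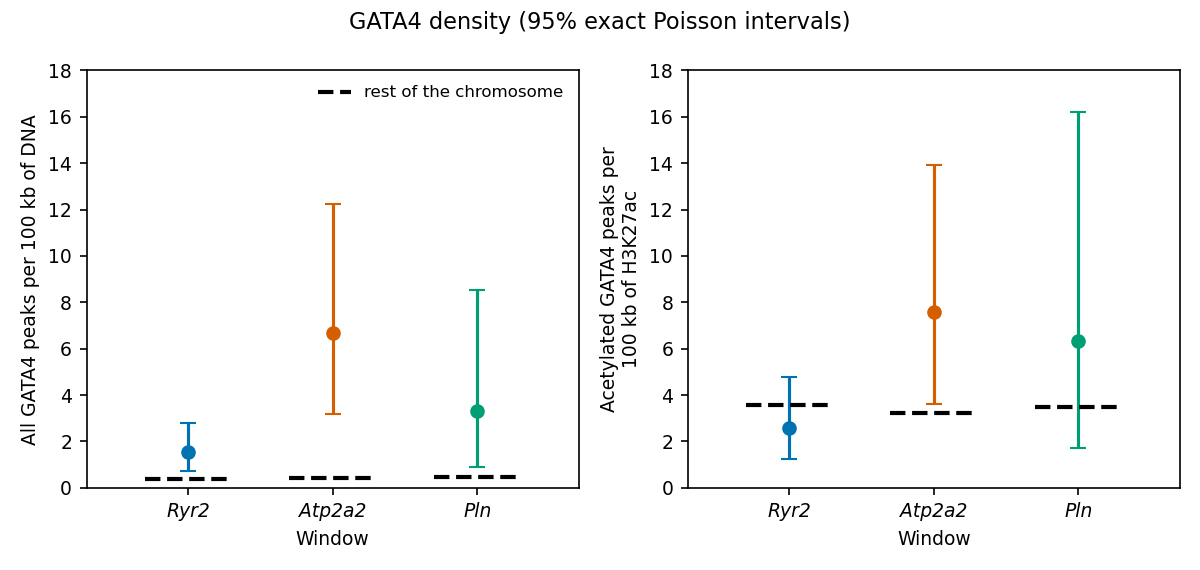
GATA4 peaks per 100 kb of DNA (left) and acetylated GATA4 peaks per 100 kb of H3K27ac (right) in each window, with 95% exact Poisson intervals as bars and the rest of the chromosome as dashed lines. All 3 windows lie above their chromosome on the left, and on the right the intervals of Ryr2 and Pln include it.

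The GATA4 peaks of the 3 windows shared several features. All 24 lay in H3K27ac (95% Clopper-Pearson interval 85.8% to 100%), against 77.7% of the 1665 other GATA4 peaks on the same chromosomes. Since most of each window is acetylated, a high share goes with the cover. Of the 24, 23 were in intervals of 10 kb or wider, 95.8% (78.9% to 99.9%), against 41.5% of the acetylated GATA4 peaks elsewhere on these chromosomes. Such intervals supplied 90.7% of the acetylated length at Atp2a2 and 53.3% at Pln. Ryr2 held 9 of them, of which the 2 widest supplied 34.5% and the next widest 4.93%, 4.37% and 3.18%. The share of all 9 was thus higher than 34.5%. A high share thus goes with the wide intervals of the windows too. Their share of the acetylated length elsewhere was not analysed here. The 24 peaks occupied 7 of the 136 intervals, and the other 129 held none. The 95% intervals of these shares take the peaks as independent, though they come in groups, so they are too narrow. Of the 24, 12 were within 5 kb of the preceding peak of the same window, 50% (29.1% to 70.9%), against 11.8% elsewhere. The first peak of each window had none before it and could not count. Peaks at higher density lie closer together, so this share is not independent of the densities above. Whether the grouping goes beyond density was not tested. The median spacing was 6.13 kb at Ryr2, 2.83 kb at Atp2a2 and 2.48 kb at Pln, where the chromosomes had 96.3, 90.8 and 69.7 kb. Spacing too goes with density, and inside a window it is bounded by the window's length.

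The median widths of the GATA4 peaks were close in the 3 windows. The median was 220.5 bp at Ryr2 (125 to 731), 228.5 bp at Atp2a2 (125 to 712) and 224.5 bp at Pln (125 to 506), against 184 bp in the whole list. Peaks at or above that list median numbered 6 of 10, 7 of 10 and 3 of 4. The narrowest H3K27ac intervals at Ryr2 and Pln were also of 125 bp. Whether this width is a lower limit of the peak calling is not known, so the shared lower end does not show alike spreads. On a scale from 0 at the centre of the H3K27ac interval to 1 at its border, the 24 peaks had a median of 0.250 and ranged from 0.00632 to 0.878. In other intervals of 10 kb or wider on these chromosomes the median was 0.427. Of the 24, 8 shared the 148.2 kb interval at Atp2a2, at 0.00632 to 0.261, so the median leans on that interval. The 24 also include 1 peak in an interval of 6.51 kb, below the limit of the comparison. The peaks farthest from a centre were the pair at Ryr2 in the 58.4 kb interval, at 0.823 and 0.878. Overlap with TCF7L2 was found for 1 of the 24, 4.17% (0.105% to 21.1%), against 2.58% elsewhere.

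**Figure D5:**
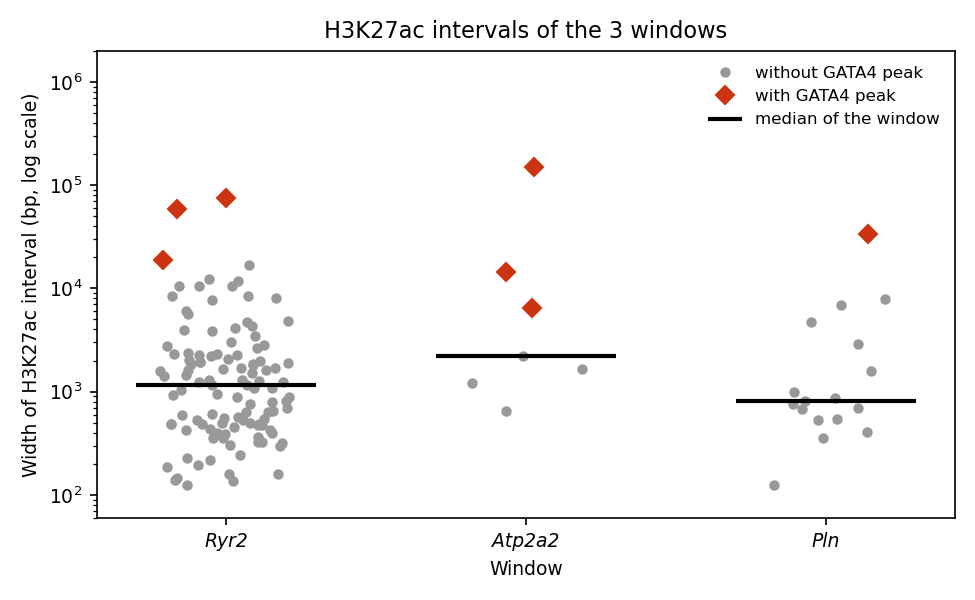
Width of each H3K27ac interval of the windows in bp on a log axis, with intervals that hold a GATA4 peak as red diamonds, the others as grey points and the median of each window as a line. The 7 intervals with GATA4 are the 3 widest at Ryr2, the 3 widest at Atp2a2 and the widest at Pln.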

How the data were processed

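The authors deposited 1 peak list per antibody, each with a chromosome, a start and an end in bp and no other value or score column. The build was mm9, and MACS2 2.1.1.20160309.0, deepTools, Bowtie2 2.2.6.2 and FastQC 0.10.0 are named, all per the submitters' processing notes. The threshold, the use of the input and how the 2 replicates were combined are not given in the sources at hand. The input sample was not analysed here.

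Positions are 1-based. An interval belonged to a window when it shared 1 bp or more, and cover was cut at the window border. Each window was set beside windows of its own length laid end to end along its chromosome, between the first and last position in the 3 lists, as a description and with no test. Shares have Clopper-Pearson and counts exact Poisson intervals at 95%, ratios the exact binomial interval given their sum, and a count of 0 an upper limit of 3 counts. All cover counting error over peaks only and take the peaks as independent. Gaps of up to 10 kb were joined for stretches. The promoters were matched by symbol in RefSeq tables of GRCm38.p6, with 2 of 3 genes found. No annotation of mm9 was used, so other calcium handling genes listed for this work were not placed and no peak was assigned to a gene. Named were all factor peaks of the windows, the 5 widest H3K27ac intervals and the longest free length of each. The functions were tested on simulated intervals. Members and lists were chosen with earlier results of these data known. Alternatives changed window borders, membership, the windows compared, interval widths, overlap and joining. Python 3.11.15, numpy 2.4.6, scipy 1.17.1, pandas 2.3.3 and matplotlib 3.10.9 were used.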

Additional observations from a re-analysis of the deposited data

How the results depend on the processing

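Of 106 alternatives, 90 stayed within 1.5 times the value, or for shares of windows or peaks within its 95% interval, and 16 moved further. Stretches moved at Ryr2 from 630.9 kb to 280.3 and 175.2 kb with gaps of up to 5 and 1 kb, at Pln from 178.9 kb to 64.0 and 33.7 kb, and at Atp2a2 from 195.1 to 315.9 kb with 20 kb. With only the wider GATA4 peaks, those at or above the median, the density at Ryr2 was 0.916 per 100 kb and the share of windows reaching Atp2a2 was 0%, as it was with the window lengthened by 50 kb on either side. Lengthening gave Pln 1.82 GATA4 peaks per 100 kb, reached by 6.43% of windows, and put the share of windows reaching the TCF7L2 count at Atp2a2 at 0.840%. The lengthened Atp2a2 window held more TCF7L2 peaks than the window as set, so the count to be reached was higher too. Shortening by 20 kb on either side left 0 TCF7L2 peaks at Atp2a2, with no share to give, and put the shares of windows reaching Pln at 2.08% for cover and 1.07% for GATA4. Among windows with H3K27ac only, they were 7.47% and 4.20%. The causes were not tested beyond what each setting removes. No paired analysis was possible because each antibody has 1 list, and no replicate could be left out. Depth is unknown, so a peak missing from a list is not shown to be absent.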
